A study of Mus musculus with 6 samples.

Results

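The genes described here encode the factors that start, extend and end the making of a protein on the cytosolic ribosome. They were found by their symbols in the annotation of the array: every gene that a probe set names alone and whose symbol begins with Eif and a digit or with Eef1 or Eef2, together with Etf1. That rule found 53 genes, measured by 110 probe sets, of the 17097 genes that can be followed by name. Each gene is represented by its brightest probe set, the one with the highest mean over the 6 arrays. Another 12 probe sets name one of these genes together with other genes and were not used. For 7 genes (Eif2s3x, Eif3f, Eif3m, Eif4g2, Eif4h, Eif5a and Eef2k) the brightest probe set is of a kind whose probes may also take up other transcripts.

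The study asked how maslinic acid (MA), a triterpene of olive peel, affects muscle that wastes after its nerve is cut. The MA group was fed the AIN-93G diet with 0.27% MA and the control group the same diet without MA, and both began 1 week before surgery, in which every mouse had its sciatic nerves cut in both legs. All mice were male ICR mice that were 7 weeks old when housing began, and were then acclimatized for 1 week before the diets started, and gastrocnemius muscle was taken on day 14 after surgery. RNA was hybridized to 6 arrays, 3 per group, and no array of muscle with an intact nerve was analysed here, so that each difference is between fed groups within denervated muscle. The values are log2 values that the authors made with RMA, so that a difference of 1 is a 2-fold difference in signal.

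Translation begins when eIF2 brings the initiator tRNA to the small ribosomal subunit, eIF3 holds the complex together, and eIF4F, made of the cap-binding eIF4E, the scaffold eIF4G and the helicase eIF4A, loads the mRNA. A pair of brakes acts on this step: kinases that phosphorylate eIF2, which then blocks its exchange factor eIF2B, and the eIF4E-binding proteins, which let go of eIF4E once mTORC1 has phosphorylated them. Elongation then runs on eEF1A, which delivers aminoacyl-tRNA, and eEF2, which moves the ribosome along the mRNA, and skeletal muscle is known for replacing the eEF1A1 form with eEF1A2 as it matures.

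Many mRNAs of the translation machinery are known to begin with a tract of pyrimidines, the 5′ terminal oligopyrimidine (TOP) tract, through which mTORC1 controls their translation. The RefSeq promoter windows (GRCm38.p6) of 41 of the 53 genes were searched on the gene's strand, from 20 bases before to 50 bases after the annotated start, for a C followed by at least 7 bases that are C or T. The sequences below are those of every gene that fell or rose and had a tract, with Eef2 and Eif2s2 picked from the genes without one. The share of tracts among the sequences shown is thus set by that choice. Each is given as 30 bases, 5′ to 3′, with the tract in capitals and beginning at base 11. Where no such tract was found, the annotated start is at base 11. The first 5 fell in the MA group and the last 3 rose. With the annotated start as position 1, tracts began at -5 (Eef1a1), -4 (Eif3f), -1 (Eif2s3x), 2 (Eif2s3y), 14 (Eif3k) and -20 (Eif3m). That of Eif3m, 11 bases long, ended before the start, so that a tract found here need not be a TOP tract. Shorter runs were not counted, so that Eef2 and others without a match may still hold one.
Eef1a1 (chr9:78481710-78481739, minus strand): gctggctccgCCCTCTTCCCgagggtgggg
Eif3f (chr7:108934401-108934430, plus strand): ctgttctaggCTCTCTCTCTTTCTCggcaa
Eif2s3x (chrX:94212633-94212662, minus strand): cgagcattttCCTTTTCTCTCCgagcaaga
Eif2s3y (chrY:1010586-1010615, plus strand): gccacagccaCTTCCTTCTTTCgtgagcaa
Eef2 (chr10:81176621-81176650, plus strand): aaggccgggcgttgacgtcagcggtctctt
Eif3k (chr7:28981856-28981885, minus strand): gctgaaagcgCCTTTCCCTTTgccttcctt
Eif3m (chr2:105017028-105017057, minus strand): tacggcaccgCTCTCTTTTCCggtcggcgt
Eif2s2 (chr2:154892887-154892916, minus strand): aaggttggctttactgtacgcctgcgcttt
A tract was found in 4 of 13 genes that fell, in 2 of 11 that rose and in 8 of 17 that did not pass the test, against 20% of all 32841 windows. Read on the opposite strand, 9 of the 41 genes and 23.3% of all windows held one. Genes with several windows had more chances of a match, and annotated starts can lie some bases from the used start, so that a tract or its lack is a description of these letters only.

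The values were fitted with limma across 45037 probe sets, p-values were adjusted over all of them, and rose and fell are used only for genes with an adjusted p under 0.05. On that rule 14 of the 53 genes rose in the MA group, where 24.7% of all genes did, and 17 fell, where 23.0% of all genes did. As shares of the 53 that is 26.4% higher and 32.1% lower. The shares over all genes include many dim genes, while 41 of the 53 were above all control probe sets for nonspecific binding. In a separate fit limited to probe sets that bright, most were called, as the counts at the end show. The share called among them in the fit used here was not counted. These shares are thus not read as a trait of the 53. The median difference over the 53 genes was 0.01, the same to 2 decimals as the median over all genes, and the differences lay between -0.34 and 0.30. Past a fold of 1.2 only Eef1akmt1 rose, where 5.92% of all genes did, and Eef2, Eif3d, Eif3b, Eef1d and Eif2s3y fell, where 6.87% did. The 3 MA arrays did not overlap the 3 control arrays in 37 of the 53 genes, against 58.6% of all genes, dim ones included. The plot of differences by role shows both rises and falls within several roles, among them eIF3 and the start codon factors.

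**Figure D1:**
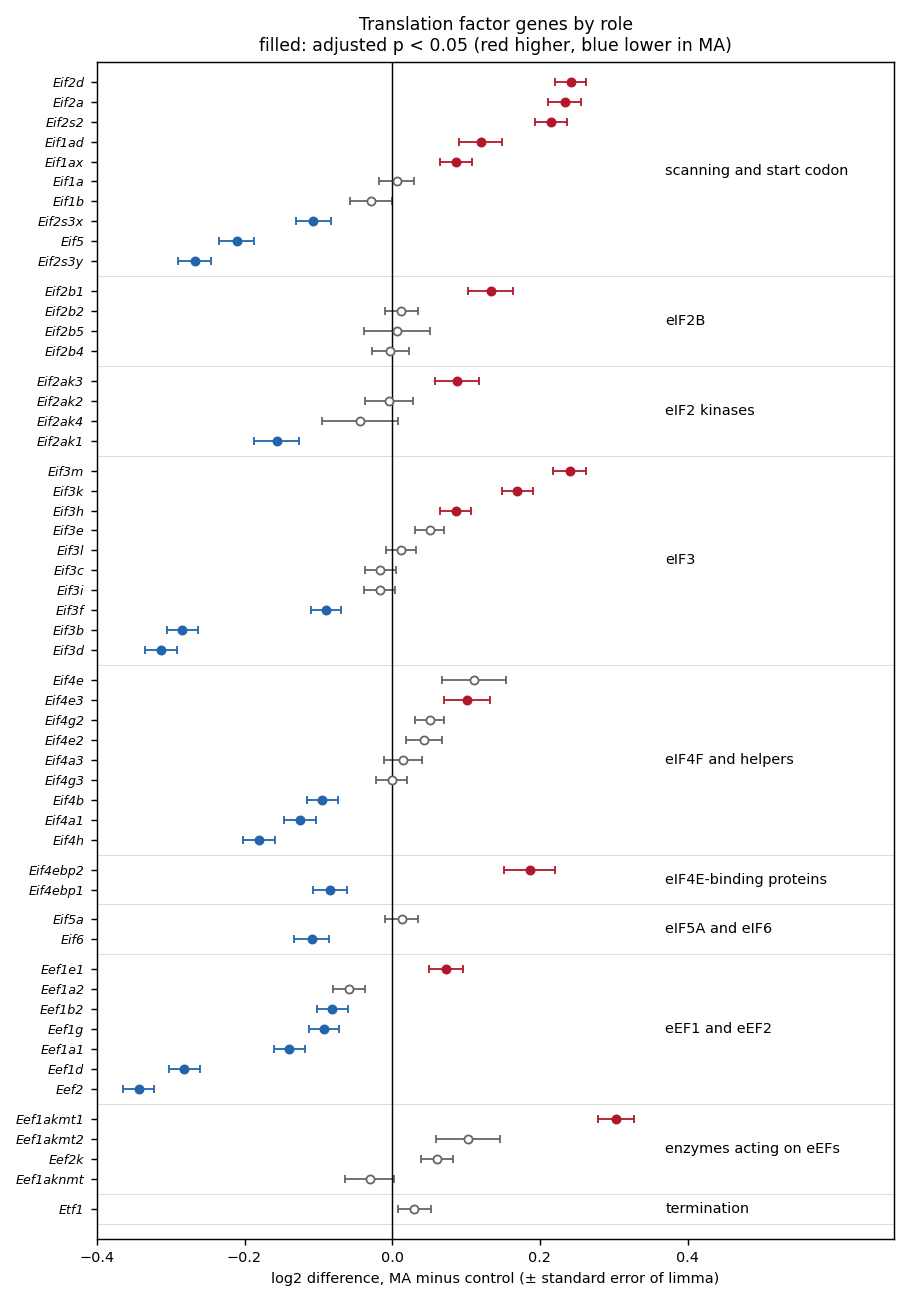
MA minus control difference (log2, with the standard error of limma) of the 53 translation factor genes, grouped by role, with filled points where the adjusted p was under 0.05. Falls reach -0.34 at Eef2 and rises reach 0.30 at Eef1akmt1. Of the 7 genes of eEF1 and eEF2, 5 are filled on the lower side, where 23.0% of all genes fell.

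Some measurements concern the arrays as a whole. The hybridization controls, bacterial and phage transcripts, had larger values on the MA arrays in 18 of 18 cases, by 0.035 to 0.354 on the log2 scale, with a median of 0.173. Of the 23 control probe sets for nonspecific binding, 22 had means between 2.39 and 3.90 and 1 stood apart at 7.24. Of the 53 genes, 51 were above the 22 and 41 were above all 23 in at least 1 group. Of the markers of other cell types, 9 of 11 macrophage genes fell, with a summed linear signal of 1870 to 1920 on the MA arrays and 3260 to 3330 on the control arrays and only Itgam under the 22 controls, and 3 of 5 fibroblast genes rose, with a sum of 4890 to 4910 on the MA arrays and 4000 to 4050 on the control arrays and none under them. Endothelial markers fell at 4 of 5, with a sum of 171 to 175 on the MA arrays and 190 to 201 on the control arrays and none under the 22 controls. Both measured adipocyte markers rose, with a sum of 141 to 142 on the MA arrays and 92 to 94.5 on the control arrays, although Lep was under the 22 controls. Satellite cell markers rose at 2 of 4 and fell at 1, with a sum of 288 to 306 on the MA arrays and 215 to 218 on the control arrays and Calcr under the 22 controls. All 10 muscle fiber markers were above the 22 controls, of which 5 rose and Ryr1 fell, with a sum of 43200 to 43400 on the MA arrays and 41600 on the control arrays to 3 digits. T cell markers fell at 3 of 6 and rose at 1. Schwann cell markers fell at 2 of 3 and rose at 1. Neutrophil markers rose at 1 of 2 and fell at 1, B cell markers rose at 1 of 3, and red blood cell markers fell at 1 of 2. Of these, Cd3g, Cd8b1, S100b, S100a9 and Cd79b were under the 22 controls. Over all genes, 23.0% fell and 24.7% rose. In a whole muscle, fewer cells of a type and less RNA per cell cannot be told apart. The part of the hybridization controls and of these cell types in the differences below was not tested. Nothing in the labels says that the arrays of a group came from separate mice, so that p-values measure the spread between arrays, which may be technical.

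More of the elongation factor genes fell than rose in the MA group. Of 7 genes of eEF1 and eEF2, falls numbered 5 and rises 1, with 1 gene that did not pass, and the median was -0.09. That is 71.4% lower and 14.3% higher, where 23.0% and 24.7% of all genes were. All 7 were bright, and in a separate fit limited to bright probe sets most were called. Eef2, the translocase, had log2 values of 10.65, 10.66 and 10.67 on the MA arrays, against 11.01, 10.99 and 11.00 on the control arrays. It was the member with the largest fall, 1.27-fold (log2 difference -0.34, standard error 0.0206, adjusted p = 4.43e-06), and its groups stood far apart for their spread. Eef1d, the delta subunit of the complex that recharges eEF1A with GTP, had 9.68, 9.67 and 9.66 on the MA arrays, against 9.94, 9.95 and 9.97 on the control arrays. It fell 1.22-fold (log2 difference -0.28, standard error 0.0212, adjusted p = 1.65e-05). The other subunits of that exchange complex moved the same way by less, Eef1g by -0.09 (adjusted p = 0.00756) and Eef1b2 by -0.08 (adjusted p = 0.0145). Eef1b2 had 11.14, 11.14 and 11.15 on the MA arrays, against 11.22, 11.24 and 11.21 on the control arrays, and its call was lost without MA replicate 2 or without control replicate 2, with a highest adjusted p of 0.0544.

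Both forms of eEF1A had lower values in the MA group, and the fall of 1 of them passed the test. Eef1a1, the form of most tissues, had 12.19, 12.19 and 12.20 on the MA arrays, against 12.33, 12.34 and 12.33 on the control arrays. It fell 1.101-fold (log2 difference -0.14, standard error 0.0204, adjusted p = 0.000802). Eef1a2, the form of adult muscle and neurons, had 10.65, 10.65 and 10.64 on the MA arrays, against 10.71, 10.72 and 10.69 on the control arrays, a difference of -0.06 (95% interval -0.11 to -0.01, adjusted p = 0.0562). Its groups did not overlap either, but it did not pass the test. Eef1e1, whose product sits in the complex of aminoacyl-tRNA synthetases and not in the eEF1 complex, was the member of this role that rose, by 0.07 (adjusted p = 0.0314), and its call was lost without any 1 of 5 of the 6 arrays (MA replicates 2 and 3 and control replicates 1, 2 and 3), with a highest adjusted p of 0.103.

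**Figure D2:**
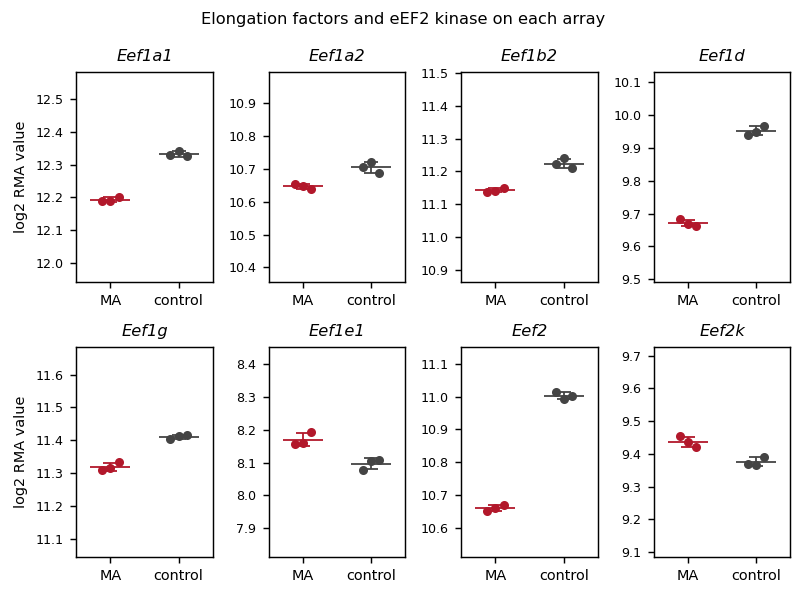
Log2 value of 7 elongation factor genes and of Eef2k, the eEF2 kinase, on each of the 3 MA arrays and 3 control arrays, with the mean and SD as bars and axes of equal span. The MA arrays lie below the control arrays for Eef1a1, Eef1a2, Eef1b2, Eef1d, Eef1g and Eef2 and above them for Eef1e1 and Eef2k.

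Of 4 enzymes that modify the elongation factors, 1 rose and 3 did not pass. That is 25% higher, near the 24.7% of all genes that rose. Eef1akmt1, known in human cells as a lysine methyltransferase of eEF1A, had 8.07, 8.07 and 8.08 on the MA arrays, against 7.73, 7.79 and 7.79 on the control arrays. This was the largest rise of the 53 genes, 1.23-fold (log2 difference 0.30, standard error 0.0241, adjusted p = 2.28e-05). Eef2k, the kinase that phosphorylates and inhibits eEF2, had 9.45, 9.44 and 9.42 on the MA arrays, against 9.37, 9.37 and 9.39 on the control arrays, a difference of 0.06 (95% interval 0.01 to 0.11, adjusted p = 0.0517). Eef1akmt2 differed by 0.10 (adjusted p = 0.0884) and Eef1aknmt, another methyltransferase of eEF1A, by -0.03 (adjusted p = 0.485), both with overlapping groups. Etf1, the release factor eRF1 that ends translation at stop codons, had 8.76 on all 3 MA arrays, against 8.70, 8.74 and 8.74 on the control arrays, a difference of 0.03 (95% interval -0.02 to 0.08, adjusted p = 0.323).

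The subunits of eIF3, the large complex that joins the small ribosomal subunit to the mRNA, split in direction. Rises numbered 3 and falls 3 of the 10 measured, the other 4 did not pass, and the median was -0.002. That is 30% in each direction, where 24.7% of all genes rose and 23.0% fell. Eif3d, whose product binds the cap of some mRNAs in human cells, had 8.76, 8.77 and 8.76 on the MA arrays, against 9.09, 9.09 and 9.06 on the control arrays. It fell 1.24-fold (log2 difference -0.31, standard error 0.0213, adjusted p = 9.01e-06). Eif3b, a scaffold of the core shared with yeast, had 8.64, 8.67 and 8.65 on the MA arrays, against 8.94, 8.93 and 8.95 on the control arrays, and fell 1.22-fold (log2 difference -0.28, adjusted p = 1.5e-05). Both sat lower on every MA array than on any control array. Eif3f, whose protein the muscle ubiquitin ligase Atrogin-1 marks for breakdown, had 12.27 on all 3 MA arrays, against 12.36 on all 3 control arrays, and fell by 0.09 (adjusted p = 0.00743). The size of these falls differed, and those of Eif3d and Eif3b were past 1.2-fold while that of Eif3f was not.

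The eIF3 genes that rose all encode subunits with a PCI or MPN domain, a group to which Eif3f, Eif3e, Eif3c and Eif3l also belong. Eif3m had 9.41, 9.38 and 9.39 on the MA arrays, against 9.16, 9.13 and 9.17 on the control arrays, and rose 1.18-fold (log2 difference 0.24, standard error 0.0224, adjusted p = 5.79e-05). Eif3k had 9.40, 9.39 and 9.38 on the MA arrays, against 9.22, 9.22 and 9.23 on the control arrays, and rose by 0.17 (standard error 0.0205, adjusted p = 0.000268). Eif3h rose by 0.09 (adjusted p = 0.0115). Eif3e had a difference of 0.05 with groups that did not overlap (adjusted p = 0.0735). Eif3l, Eif3c and Eif3i, the last a subunit without such a domain, lay at 0.01, -0.02 and -0.02 with overlapping groups. The 95% intervals of Eif3l, Eif3c and Eif3i lay between -0.07 and 0.06.

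**Figure D3:**
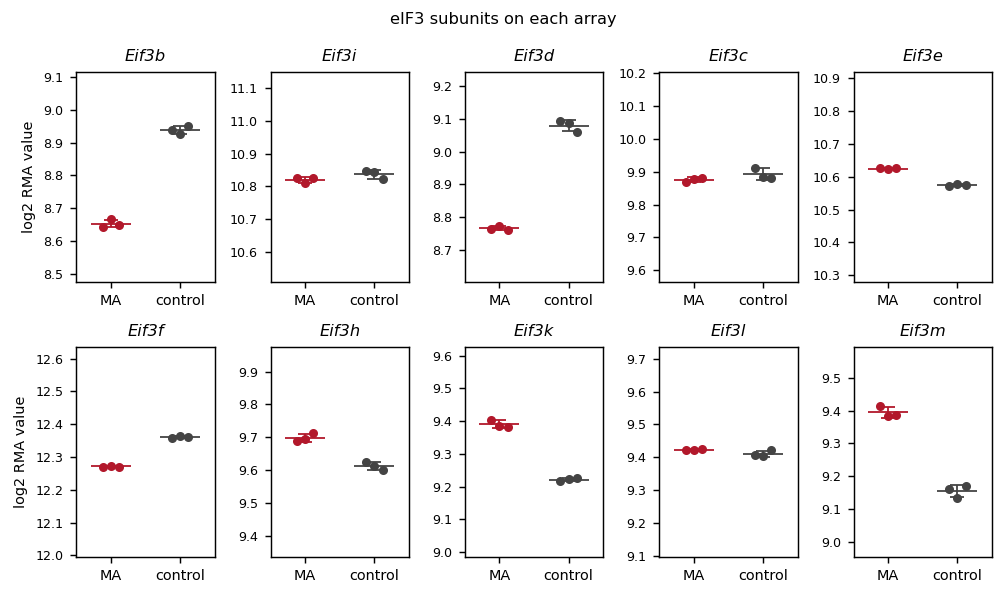
Log2 value of 10 eIF3 subunit genes on each of the 3 MA arrays and 3 control arrays, with the mean and SD as bars and axes of equal span. Eif3b, Eif3d and Eif3f are lower and Eif3h, Eif3k and Eif3m higher on every MA array than on any control array.

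Of 10 genes that serve the scanning of the mRNA and the choice of the start codon, rises numbered 5 and falls 3, and the other 2 did not pass. Those shares are 50% and 30%, beside 24.7% and 23.0% of all genes. The subunits of eIF2 went both ways. Eif2s2, the beta subunit, had 10.50, 10.51 and 10.50 on the MA arrays, against 10.28, 10.28 and 10.31 on the control arrays, and rose 1.16-fold (log2 difference 0.22, standard error 0.0212, adjusted p = 8.12e-05). The gamma subunit, which binds GTP and the initiator tRNA, has an X-linked gene and a Y-linked gene of near-identical sequence in mice. Eif2s3y had 8.42, 8.42 and 8.46 on the MA arrays, against 8.69, 8.70 and 8.71 on the control arrays, and fell 1.204-fold (log2 difference -0.27, adjusted p = 2.98e-05). Eif2s3x had 9.35, 9.33 and 9.38 on the MA arrays, against 9.47, 9.47 and 9.44 on the control arrays, and fell by 0.11 (adjusted p = 0.0071). Both copies were thus lower, though a probe set of one may also take up the other. The Y-linked gene was well above the 22 nonspecific controls on all 6 arrays. Eif5, which makes eIF2 hydrolyse its GTP at the start codon, had 9.22, 9.26 and 9.28 on the MA arrays, against 9.44, 9.48 and 9.47 on the control arrays, and fell 1.16-fold (log2 difference -0.21, adjusted p = 0.000202).

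A pair of factors described as able to bring tRNA to the ribosome without eIF2 rose. Eif2d had 8.68, 8.69 and 8.70 on the MA arrays, against 8.45, 8.44 and 8.46 on the control arrays, and rose 1.18-fold (log2 difference 0.24, standard error 0.0209, adjusted p = 3.77e-05). Eif2a, a separate protein that is not a subunit of eIF2, had 7.81, 7.83 and 7.80 on the MA arrays, against 7.60, 7.56 and 7.58 on the control arrays, and rose 1.18-fold (log2 difference 0.23, adjusted p = 6.6e-05). Their groups stood apart by far more than the spread of either group. Eif1ax, which keeps the scanning complex open, had 9.80, 9.80 and 9.81 on the MA arrays, against 9.70, 9.71 and 9.74 on the control arrays, and rose by 0.09 (adjusted p = 0.0126). Eif1ad rose by 0.12 (adjusted p = 0.0108), while Eif1a and Eif1b lay at 0.01 and -0.03 (adjusted p = 0.862 and 0.441).

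The exchange factor of eIF2 and the kinases that act as its brake showed small differences or lay near the background. Of the 4 genes of eIF2B measured, Eif2b1, the alpha subunit, rose by 0.13 (adjusted p = 0.0082) and the other 3 did not pass. That is 25% higher, near the 24.7% of all genes that rose. Eif2b4 had 8.62, 8.68 and 8.69 on the MA arrays, against 8.68, 8.66 and 8.66 on the control arrays, a difference of less than 0.01 in size, and Eif2b5, was close to the 22 nonspecific controls, with means of 4.05 over the MA arrays and 4.04 over the control arrays. Of the eIF2 kinases, Eif2ak1, the heme-regulated kinase, had 6.46, 6.54 and 6.45 on the MA arrays, against 6.62, 6.67 and 6.64 on the control arrays, and fell by 0.16 (standard error 0.0303, adjusted p = 0.00362). Eif2ak3, the kinase PERK of the endoplasmic reticulum, rose by 0.09 (adjusted p = 0.044), a call that was lost without 4 single arrays (MA replicates 2 and 3 and control replicates 2 and 3), with a highest adjusted p of 0.139. Eif2ak2, the kinase PKR that interferon is known to induce, had 3.25, 3.33 and 3.25 on the MA arrays, against 3.23, 3.30 and 3.32 on the control arrays, a difference of less than 0.01 in size (adjusted p = 0.92). Of 18 other interferon-induced genes on the same arrays 15 fell and 1 rose, where 23.0% of all genes fell and 24.7% rose. Eif2ak2, however, lay under the highest of the 22 nonspecific controls, 3.90. Irf7, Oasl2 and Mx1 of the 18 lay under it too, and Irf7 and Oasl2 are counted among the falls. So did Eif2ak4, the amino acid sensor GCN2, with means of 3.83 over the MA arrays and 3.87 over the control arrays.

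The 9 genes of eIF4F and its helpers held 3 falls and 1 rise, or 33.3% and 11.1%, where 23.0% of all genes fell and 24.7% rose. The genes that fell serve the helicase step. Eif4a1, the main helicase, had 10.82, 10.81 and 10.82 on the MA arrays, against 10.92, 10.94 and 10.96 on the control arrays, and fell 1.09-fold (log2 difference -0.12, adjusted p = 0.00183). Eif4h, which stimulates it, had 9.55, 9.54 and 9.54 on the MA arrays, against 9.74, 9.72 and 9.70 on the control arrays, and fell 1.13-fold (log2 difference -0.18, standard error 0.0217, adjusted p = 0.00026). Eif4b, another cofactor of the helicase, fell by 0.09 (adjusted p = 0.00646). The groups of these 3 genes did not overlap. Eif4a3, which works in the exon junction complex and not in eIF4F, lay at 0.01 with overlapping groups (adjusted p = 0.671).

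Of the cap-binding proteins and scaffolds, only Eif4e3 passed the test at its brightest probe set. Eif4e had 4.10, 4.12 and 4.20 on the MA arrays, against 4.12, 3.99 and 3.98 on the control arrays, a difference of 0.11 (95% interval 0.01 to 0.21, adjusted p = 0.0713), at levels close to the 22 nonspecific controls, so that its mRNA was poorly measured here. Eif4e3, a cap-binding relative of eIF4E, had 7.41, 7.46 and 7.43 on the MA arrays, against 7.28, 7.36 and 7.37 on the control arrays, and rose by 0.10 (adjusted p = 0.0296), a call that was lost without MA replicate 2, MA replicate 3 or control replicate 1, with a highest adjusted p of 0.104. Eif4e2, a cap-binding repressor, differed by 0.04 (adjusted p = 0.2). Eif4g2, a scaffold that lacks the eIF4E-binding part, had 11.42 on all 3 MA arrays, against 11.36, 11.36 and 11.37 on the control arrays, a difference of 0.05 (adjusted p = 0.0735) with no overlap, and Eif4g3 had a 95% interval of -0.05 to 0.05 around a difference of less than 0.01.

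The eIF4E-binding proteins, which hold eIF4E back when mTORC1 is inactive, went in opposite directions. Eif4ebp2 had 7.14, 7.20 and 7.22 on the MA arrays, against 6.94, 7.01 and 7.05 on the control arrays, and rose 1.14-fold (log2 difference 0.19, standard error 0.0348, adjusted p = 0.00307). Eif4ebp1 had 8.54, 8.55 and 8.55 on the MA arrays, against 8.60, 8.64 and 8.66 on the control arrays, and fell by 0.08 (adjusted p = 0.0198). The fall of Eif4ebp1 lost its call without any 1 of 5 of the 6 arrays (all but control replicate 1), with a highest adjusted p of 0.069, while the rise of Eif4ebp2 kept its call without each array. Of the late factors, Eif6, which keeps the large ribosomal subunit from joining too soon, fell by 0.11 (adjusted p = 0.00625). Eif5a, whose product needs the amino acid hypusine to keep the ribosome moving, had 11.57, 11.53 and 11.54 on the MA arrays, against 11.52, 11.54 and 11.54 on the control arrays, a difference of 0.01 (95% interval -0.04 to 0.06, adjusted p = 0.673).

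**Figure D4:**
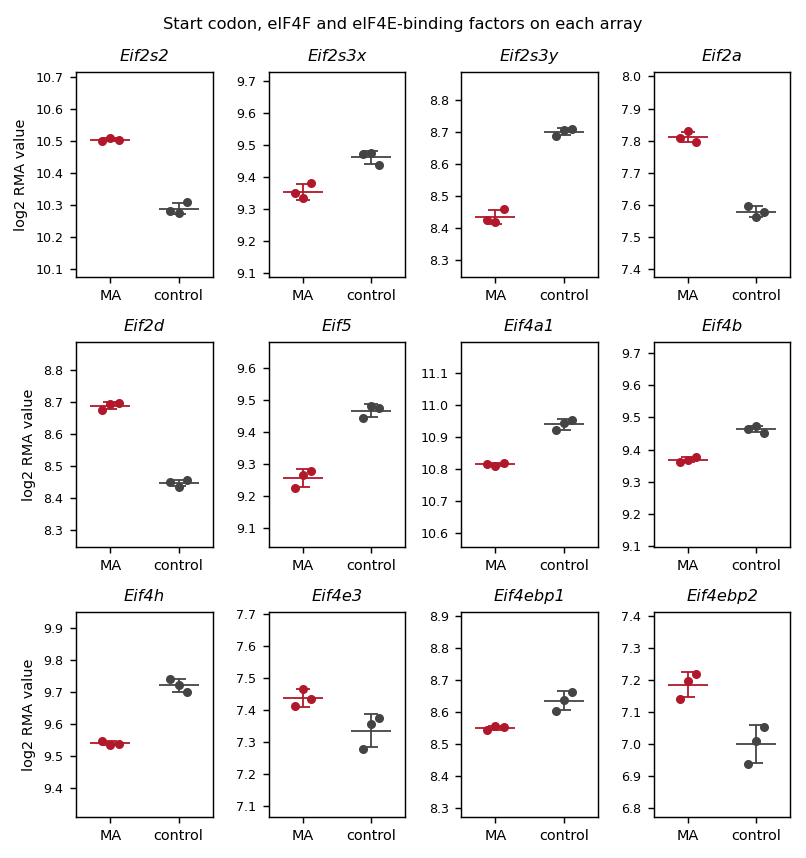
Log2 value of 12 initiation factor genes on each of the 3 MA arrays and 3 control arrays, with the mean and SD as bars and axes of equal span. The MA arrays are higher for Eif2s2, Eif2a, Eif2d, Eif4e3 and Eif4ebp2 and lower for Eif2s3x, Eif2s3y, Eif5, Eif4a1, Eif4b, Eif4h and Eif4ebp1, with no overlap in any of the 12.

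Several genes were measured more than once, which shows how far a difference holds along the transcript or between transcript forms. Over all probe sets of the array 42.9% passed the test. Of 26 genes with 2 or more probe sets above the 22 nonspecific controls, 4 rose at all of them (Eef1akmt1, Eif1ax, Eif4e3 and Eif4ebp2), 4 fell at all of them (Eef1d, Eif2s3x, Eif4a1 and Eif5), 5 passed at none, 12 passed at some in 1 direction and Eif4h passed in both. The 5 probe sets of Eif5 differed by -0.28 to -0.16, and the 3 of Eif2s3x by -0.14 to -0.11. The 2 of Eif4e3 were far apart, at 0.10 for the brightest and 0.49 for the other, which had 7.28, 7.26 and 7.32 on the MA arrays, against 6.78, 6.78 and 6.84 on the control arrays (adjusted p = 3.8e-06). That was the largest difference of any of the 110 probe sets. Of the 4 probe sets of Eif4ebp2 above the 22 controls, the brightest rose by 0.19 and the others by 0.31, 0.14 and 0.10. Eif4h fell by 0.16 to 0.19 at 3 probe sets, rose by 0.10 at another (adjusted p = 0.0398) and differed by -0.05 at the dimmest (adjusted p = 0.116). Eif4b fell by 0.22 and 0.09 at 2 probe sets and differed by -0.01 at the dimmest (adjusted p = 0.694).

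Among the genes that were described above as moving, some had further probe sets that did not pass or were dim. Eif2d rose by 0.24 at 2 probe sets and by 0.07 at another, with 0.03 at the dimmest (adjusted p = 0.719). Eif2ak1 fell by 0.16 at 2 probe sets and differed by 0.03 at another, and Eif3f differed by -0.03 at its second. The second probe sets of Eif2s2, Eif2s3y and Eif3d lay under 3.90 in both groups, with differences of -0.23, -0.06 and 0.14, of which those of Eif2s2 (adjusted p = 0.00069) and Eif3d (adjusted p = 0.0463) passed the test in the direction opposite to the brightest probe set. Of the genes without a call, Eef2k rose at 1 of its other 2 probe sets, by 0.13 (adjusted p = 0.00321), Eif4g2 rose by 0.07 at 1 of its other 4, and Eif4e2 rose by 0.08 at 1 of its other 4 (adjusted p = 0.0425). Eif4g3 rose by 0.22 at the dimmest of its 3 probe sets (adjusted p = 0.000617), with differences of less than 0.01 in size at the other 2. Eif3c fell by 0.09 (adjusted p = 0.011) and Eif2b2 by 0.10 (adjusted p = 0.0128) at the second of their probe sets. These values of Eif4g3, Eif3c and Eif2b2 lie outside the 95% intervals of the brightest probe sets. Etf1 and Eif5a passed at neither of theirs.

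**Figure D5:**
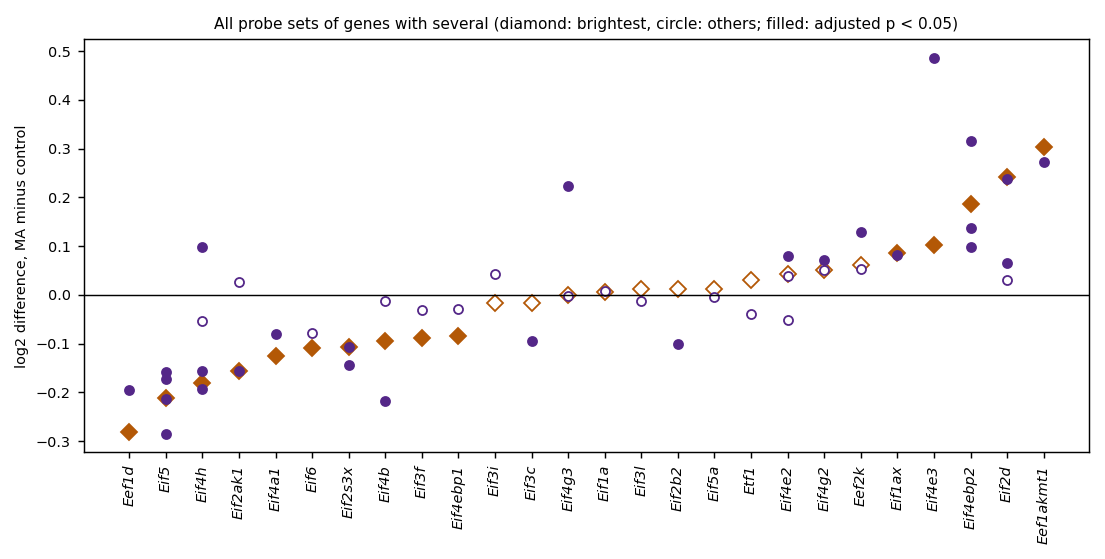
MA minus control difference (log2) at every probe set above the 22 nonspecific controls, for the 26 genes with 2 or more, with diamonds for the brightest probe set, circles for the others and filled symbols where the adjusted p was under 0.05. The second probe set of Eif4e3 stands at 0.49, and Eif4h has filled symbols on both sides of 0.

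Genes around these factors were followed with lists that the rule does not hold. Of 27 measured genes of the mTORC1 pathway, which controls the eIF4E-binding proteins and TOP mRNAs, 12 rose and 9 fell, with a median of 0.06, against 0.01 over all genes. That is 44.4% higher and 33.3% lower, where 24.7% and 23.0% of all genes were, dim ones included. The largest fall was that of Ddit4, the stress-induced inhibitor of mTORC1 also called REDD1, at 6.76 ± 0.0186 over the MA arrays and 7.87 ± 0.00705 over the control arrays (log2 mean and SD, n = 3 each), 2.15-fold lower by the fit of limma (adjusted p = 7.62e-09). Its relative Ddit4l, called REDD2, went the other way, at 8.85 ± 0.0187 over the MA arrays and 8.14 ± 0.0207 over the control arrays (log2 mean and SD, n = 3 each), 1.63-fold higher by the same fit (adjusted p = 1.25e-07). Tbc1d7, a subunit of the TSC complex that restrains mTORC1, rose by 0.59, and the kinase Akt1 fell by 0.23. The list thus held larger differences than the 53 translation factor genes did, in both directions.

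Of 19 partners of the factors in recycling, termination, poly(A) binding and protein modification, 7 rose and 5 fell, with a median of 0.04. That is 36.8% higher and 26.3% lower, where 24.7% and 23.0% of all genes were. Dph3, of the pathway that builds diphthamide on eEF2, rose by 0.32 (adjusted p = 1.09e-05), and Mcts2, a tRNA recycling factor related to Eif2d, rose by 0.31 (adjusted p = 2.23e-05). Dhps, the first enzyme of hypusine synthesis on eIF5A, fell by 0.32 (adjusted p = 5.15e-05), and Pdcd4, an inhibitor of eIF4A, fell by 0.24 (adjusted p = 5.29e-05). Of 15 genes of the integrated stress response, the program that phosphorylation of eIF2 sets off, 6 fell and 2 rose. The list holds regulators of that program as well as its targets, and its median was -0.03. As shares that is 40% lower and 13.3% higher, where 23.0% of all genes fell and 24.7% rose. Gcn1, the activator of GCN2, fell by 0.37 and Chac1, a target of the response, fell by 1.26, while Asns and Dnajc3, which stress is known to induce, rose by 0.15 and 0.10. Atf4, the central transcription factor of the response, differed by 0.03 (adjusted p = 0.223). Ddit3, Trib3, Sesn2, Atf5 and Atf3 did not pass either, with differences between -0.05 and 0.08. Of 7 factors of mitochondrial translation, 2 rose and 1 fell (28.6% and 14.3%, near the shares of all genes), with a median of -0.03. Among these Mtif2, the mitochondrial initiation factor, rose by 0.46 (adjusted p = 5.29e-06), Gfm1 rose by 0.06 and Tufm fell by 0.09.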

How the data were processed

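The deposited table holds log2 values that the authors made with RMA in Expression Console, as deposited and per the labels, from scans of Affymetrix mouse array strips. RMA subtracts a modelled background, brings the arrays to 1 distribution and summarizes the probes of each probe set. The tool's version is not given in the sources used here. A human array is named in the design text, but the probe sets carry names of the mouse array given in the methods. Array medians lay between 4.266 and 4.276.

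All 45141 probe sets were read and 104 array controls set aside. The MA minus control difference was fitted in R 4.3.3 with limma 3.58.1 (lmFit and eBayes, no covariate), with Benjamini-Hochberg adjustment over 45037 probe sets. The fit was tested on simulated data. With 3 arrays per group the smallest two-sided p of an exact permutation test is 0.1, and that test was not used. The number of arrays limits the precision.

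All 53 gene symbols are also RefSeq's. Values on each array are given for the 8 largest rises and 8 largest falls among called genes above the highest nonspecific control, the brightest gene of each role, and 8 genes chosen for their roles. Eif1b, Eif2b1, Eif4ebp2, Eef1b2 and other genes outside that rule were described after their values were seen. From each pathway list the 2 largest rises and falls were named, and others were added. The genes, lists and search for tracts were chosen with earlier results of these data known.

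As alternatives, each array was left out in turn, the replicate number was used as a block, and the methods' one-way ANOVA, a minimum fold of 1.2, other variance moderation, array weights, a repeated normalization, centring, dimness filters and averages of a gene's probe sets were tried.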

Additional observations from a re-analysis of the deposited data

How the results depend on the processing

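Of the 31 called genes, 26 kept their call and direction without each single array, and none of the 5 others changed direction. Over every alternative in which they were tested, the fold limit aside, 24 kept both. Leaving out single arrays gave 15626 to 19388 called probe sets, 11 to 15 translation factor genes higher, 15 to 17 lower, and a median difference between 0.0022 and 0.0153. The fold limit and the filter on dim probe sets leave fewer candidates by construction. With a fold over 1.2, and equally with the methods' one-way ANOVA at an unadjusted p under 0.05 and that fold, 4633 probe sets were called, with 1 translation factor gene higher and 5 lower. After Benjamini-Hochberg adjustment the ANOVA called 14884 probe sets, with 15 genes higher and 18 lower. With probe sets kept only above all 23 nonspecific controls, 5504 of 6496 were called, 13 of the 41 genes left were higher and 17 lower, and their median was -0.0026. Most probe sets of that brightness were thus called in this separate fit, as were most of the 41 genes. Its variance moderation and adjustment used only the probe sets kept. In the main fit 10 of the 41 genes were higher and 16 lower. A filter at the 22 other controls, chosen after seeing the data, gave 17 higher and 18 lower. The average of a gene's probe sets gave a median of -0.0037 and turned the direction of Eif2ak3 (-0.0037), Eif2s2 (-0.0083) and Eif4g3 (0.0737). The further probe sets averaged in lay under 3.90 for Eif2ak3 (-0.05 at both) and Eif2s2 (-0.23), and for Eif4g3 1 of them differed by 0.22. Same-numbered arrays of the groups deviated together with correlations of 0.188, 0.042 and 0.142, so that the numbers were not taken as pairs, and with a replicate block 14 genes were higher and 17 lower, with 19844 probe sets called. The block gave Eef1akmt2 a call (adjusted p = 0.0172) and took that of Eif2ak3 (adjusted p = 0.0737), and it changed no other call among the 53 genes. Of the 22 genes not called, 8 were called under at least 1 alternative (Eef1a2, Eef1akmt2, Eef2k, Eif3c, Eif3e, Eif4e, Eif4g2 and Eif4g3). Normalizing again or centring left the median of all genes at 0.0087 and 0.0034. Signal over background limits Eif2ak2, Eif2ak4, Eif2b5 and Eif4e.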
